A study of Mus musculus with 6 samples.

Results

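The genes described here encode the enzymes, subunits and regulators of de novo sphingolipid and ceramide synthesis: Sptlc1, Sptlc2, Sptlc3, Sptssa, Ormdl3, Cers2, Cers4, Cers5, Cers6 and Degs1. These are 10 of the 22942 genes in the series, taken by symbol. Where a gene had several RefSeq transcripts, the one with the highest mean over the 6 libraries was to stand for it. The transcript was thus to be chosen by mean RPKM; each of the 10 had 1 transcript in the tables, so that choice changed nothing. The 10 genes were named with results of this comparison already known, Sptlc3 among them, so the counts over them describe the set and support nothing beyond it.

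The cells were C3H-10T1/2, a mouse mesenchymal line that can form fat cells in culture, and RNA was taken after 6 days of brown adipocyte differentiation. One group of 3 cultures received the solvent DMSO and the other group of 3 received 4 uM of 611 (Cpd A), a compound that inhibits LSD1, a histone demethylase. Both groups were induced for 72 h in 10% serum with rosiglitazone and dexamethasone (1 uM each), T3 (1 nM), insulin (20 nM), indomethacin (125 uM) and isobutylmethylxanthine (0.5 mM), then kept in insulin, T3 and rosiglitazone, so the controls carried these agents too. The labels place the start of DMSO or 611 either at seeding or 12 h later, with induction 48 h after that, so treatment began before induction. This is 1 cell line, and p-values measure the spread between 3 cultures a group. Values are RPKM, read numbers scaled to transcript length and library size, and a ± is the SD over the 3 libraries of a group.

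Sphingolipids are membrane lipids built on a long-chain base. Serine palmitoyltransferase makes that base from serine and a fatty acyl-CoA in the endoplasmic reticulum. A reductase and 1 of several ceramide synthases then turn it into dihydroceramide, and a desaturase makes ceramide, the parent of sphingomyelin and the glycosphingolipids. In fat tissue ceramides are known for their links to insulin resistance and to reduced heat production by brown and beige fat.

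With 611 the largest change in the pathway was in Sptlc3, a catalytic subunit of serine palmitoyltransferase, which was 5.73-fold lower. Ormdl3, which restrains that enzyme, was 1.51-fold lower. Sptlc2, the sister subunit of Sptlc3, was 1.23-fold higher, and the ceramide synthase gene Cers5 was 1.475-fold higher. Of the 10 genes, 5 were higher and 3 lower at a Benjamini-Hochberg adjusted p below 0.05 (limma on log2(RPKM + 1) over all genes tested). Over all 13829 genes tested, 59.4% were called, 41.6% higher and 17.7% lower, so a call by itself is common in these data. The median log2 fold change was 0.17 over the 10 genes and 0.10 over all genes tested. RNA came from whole cultures, so fewer cells of a type and less RNA per cell cannot be told apart in any of these values.

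**Figure D1:**
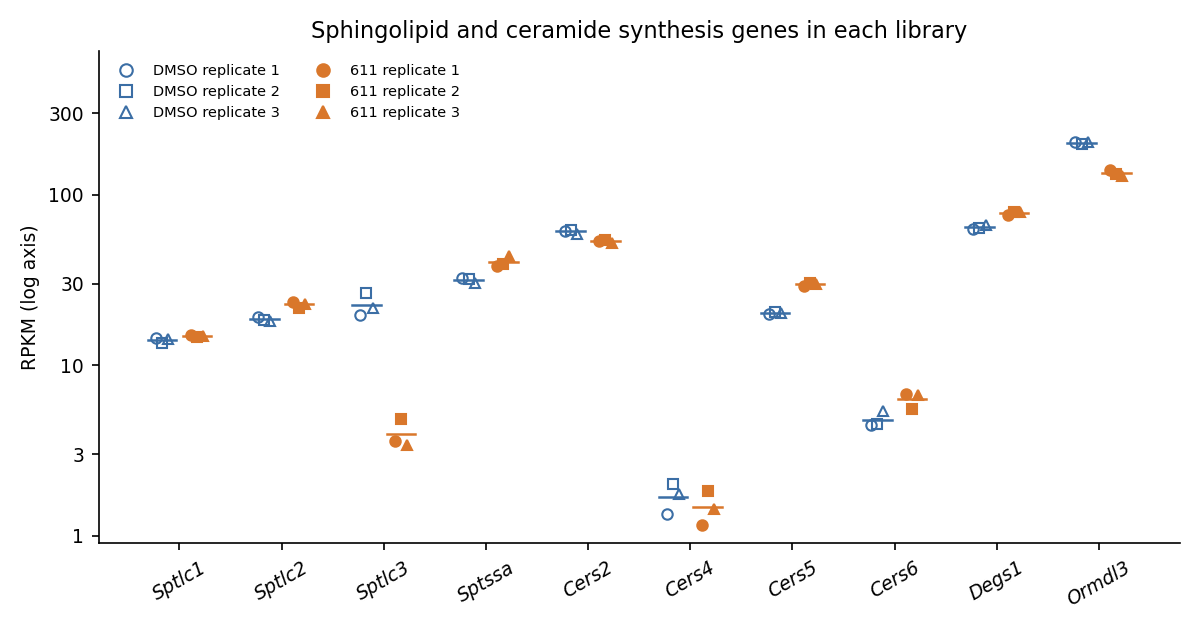
RPKM on a log axis for each of the 10 genes in each of the 6 libraries, with DMSO as open blue symbols, 611 as filled orange symbols, marker shape for the replicate number and a line at each group's mean. Sptlc3 falls from about the level of Sptlc2 to near that of Cers6, and in 9 of the 10 genes the libraries of the groups do not overlap.

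The groups of libraries did not overlap for 9 of the 10 genes. That was also so for 66.2% of all genes tested. With DMSO the levels ran in the order Ormdl3, Degs1, Cers2, Sptssa, Sptlc3, Cers5, Sptlc2, Sptlc1, Cers6 and Cers4, from 201.9 ± 2.99 to 1.69 ± 0.331 RPKM. In that order the neighbours Sptlc3 and Cers5 overlapped between libraries (19.7 to 26.4 and 19.96 to 20.4 RPKM). With 611 Sptlc3 stood below Cers6, at 3.94 ± 0.770 against 6.35 ± 0.688 RPKM.

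Scaling matters for the small changes here. After median-of-ratios scaling the median over all genes was 0.00 on the log2 scale in place of 0.10, and the calls went from 5758 higher and 2451 lower (70.1% higher) to 3941 and 3962 (49.9% higher). With it, 4 of the 10 genes were higher and 3 lower, and their median was 0.03. It was also 0.03 with the trend on length, GC content and level removed, where 4 were higher and 4 lower. All genes tested then had 3708 higher and 4446 lower, at a median of -0.033. The gene that lost its call with the scaling was Cers6.

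The marker levels of the cultures moved as well. Beside the counts below stand 59.4% of all genes tested called, 41.6% higher and 17.7% lower. Counts in lists with 4 or fewer markers tested therefore say little by themselves. Of 10 adipocyte markers 9 were tested and 9 were lower with 611. The summed level ran from 27380 to 28530 RPKM with DMSO and from 14250 to 15800 with 611. Most of that sum was Fabp4, at 20510 to 21960 RPKM with DMSO and 10360 to 11510 with 611. Single markers were lower by 1.17-fold (Cebpa) to 3.125-fold (Cfd). Of 10 brown adipocyte markers 8 were tested, 5 lower and 1 higher, with sums of 227 to 272 against 86.8 to 106 RPKM, and Ucp1 was at 0 in every library of both groups. Of 8 mesenchymal progenitor markers 7 were tested and 6 were higher, with sums of 71.2 to 80.4 against 235 to 250 RPKM and Dpp4 at 0, and 8 of 8 markers of dividing cells were higher, with sums of 79.1 to 80.9 against 184 to 208 RPKM. Of 5 smooth muscle or myofibroblast markers 4 were tested and 3 were higher, with sums of 51.9 to 53.5 against 126 to 139.7 RPKM. Of 4 chondrocyte markers 3 were tested and 2 were higher, with sums of 10.2 to 10.9 against 24.1 to 25.1 RPKM and Acan at 0. Of 5 osteoblast markers 2 were tested, 1 higher and 1 lower (3.22 to 3.56 against 5.48 to 5.98 RPKM in sum). The skeletal muscle markers Myod1, Myog and Ckm were at 0, and Acta1 was lower. Macrophage and endothelial markers each summed to at most 0.323 RPKM in any library. Of 4 endothelial markers 1 was tested, Tek, which was higher at 0.254 RPKM with 611 against 0.0852 with DMSO. Of 3 macrophage markers 0 were tested, and Cd68 was not matched to a gene. In the brown adipocyte, progenitor, chondrocyte and osteoblast sums the highest single values were 160 (Elovl3), 131.7 (Ly6a), 19.8 (Sox9) and 5.50 RPKM (Runx2). The part of these marker changes in the results below was not tested.

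Sequence upstream of the start sites is shown for 3 genes because Sptlc3, the gene with the largest change, stands apart in it from Sptlc2, its sister subunit, and from Ormdl3, the other gene of the set with a large fall. Each window is the 250 bases before the RefSeq start on build GRCm38.p6, a later build than the mm9 of the tables, and is used for its letters alone. The windows are chr2:139493663-139493912 on the + strand for Sptlc3, chr12:87388356-87388605 on the - strand for Sptlc2 and chr11:98587246-98587495 on the - strand for Ormdl3. Sequences run 5′ to 3′ along the gene, and capitals mark CpG dinucleotides.
Sptlc3: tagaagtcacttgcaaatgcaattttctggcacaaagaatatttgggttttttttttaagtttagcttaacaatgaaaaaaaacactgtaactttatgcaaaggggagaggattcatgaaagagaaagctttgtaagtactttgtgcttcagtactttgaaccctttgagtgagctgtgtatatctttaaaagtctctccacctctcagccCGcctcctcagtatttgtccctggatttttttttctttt
Sptlc2: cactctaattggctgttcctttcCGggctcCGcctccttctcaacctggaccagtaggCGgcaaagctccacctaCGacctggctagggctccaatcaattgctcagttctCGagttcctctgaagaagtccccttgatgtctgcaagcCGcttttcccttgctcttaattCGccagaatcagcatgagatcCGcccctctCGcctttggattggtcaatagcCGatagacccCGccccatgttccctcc
Ormdl3: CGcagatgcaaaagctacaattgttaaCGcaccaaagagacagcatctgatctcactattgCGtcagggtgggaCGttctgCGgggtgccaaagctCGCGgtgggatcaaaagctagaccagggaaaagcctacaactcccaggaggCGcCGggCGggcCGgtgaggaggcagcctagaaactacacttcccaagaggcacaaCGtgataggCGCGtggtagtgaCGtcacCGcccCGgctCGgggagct
The Sptlc3 window held 1 CpG and 35.6% G + C. Sptlc2 had 11 CpG at 55.2% and Ormdl3 had 18 at 58.8%. RefSeq gave a window for each of the 10 genes, and outside Sptlc3 the main windows held 11 to 28 CpG. A second start listed for Cers2 held 5. Among 13323 start sites of genes tested, the median was 15 CpG and 4.33% had 1 or fewer. The letters of the GC box, GGGCGG on either strand, were in 56.3% of those windows. They were found 2 times each in the Sptlc2 and Ormdl3 windows and were not found in the Sptlc3 window. They were also not found in the windows of Cers6 and Degs1 or at the second start of Cers2. The letters CCAAT on either strand were in 35.8% of windows and were found 3 times for Sptlc2 and in neither of the other windows shown. Nor were they found for Cers4, Cers5 and Degs1 or at the second start of Cers2. These counts describe letters and say nothing of a factor or of the RNA change.

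Serine palmitoyltransferase joins Sptlc1 with either Sptlc2 or Sptlc3, and small subunits such as Sptssa raise its activity. Sptlc1, the common subunit, stood at 14.4, 13.6 and 14.3 RPKM in DMSO replicates 1, 2 and 3 and at 15.1, 14.6 and 14.8 in 611 replicates 1, 2 and 3. The lowest 611 library lay just above the highest DMSO library. The log2 fold change was 0.07 with a 95% interval from -0.03 to 0.16, short of the threshold (adjusted p = 0.195, limma with Benjamini-Hochberg), and its sign turned to -0.07 after median-of-ratios scaling.

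Sptlc2, the widely expressed catalytic subunit, stood at 19.2, 18.4 and 18.2 RPKM with DMSO and at 23.6, 21.8 and 22.97 with 611. Every 611 library was above every DMSO library. It was higher by 0.28 on the log2 scale (SE 0.044; limma, Benjamini-Hochberg adjusted p = 0.000598), and the difference was 0.14 after median-of-ratios scaling, still past the threshold.

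Sptlc3, the alternative catalytic subunit that broadens the range of acyl-CoAs the enzyme accepts, stood at 19.7, 26.4 and 21.6 RPKM with DMSO and at 3.58, 4.82 and 3.41 with 611. The highest 611 library was far below the lowest DMSO library, and replicate 2 was the highest in both groups. Within same-numbered pairs the level with 611 was 0.182, 0.182 and 0.158 times that with DMSO. The log2 fold change was -2.26 (SE 0.125, 95% interval -2.54 to -1.97; limma, Benjamini-Hochberg adjusted p = 1.74e-06), and 4 of the 13829 genes tested, Sptlc3 included, were at or below it. At the reference length these values rest on about 2110 to 2890 reads with DMSO and 384 to 547 with 611. Counting error is then between 1.86% and 5.10% a library, against a spread between replicates of 15.3% with DMSO and 19.6% with 611.

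Sptssa, the small activating subunit, stood at 32.7, 31.98 and 30.3 RPKM with DMSO and at 38.1, 39.1 and 43.98 with 611. The 611 libraries lay above the DMSO libraries, and 611 replicate 3 was the highest. It was higher by 0.34 on the log2 scale (SE 0.057; limma, Benjamini-Hochberg adjusted p = 0.000901), and by 0.19 after median-of-ratios scaling, still past the threshold. An exon of Sptssa holds the microRNA Mir1892, whose reads the tables may not separate. Sptssb, the other small subunit, was listed at 0 in the 6 libraries, where 3 reads would be 0.0946 to 0.1 RPKM.

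Because Sptlc2 and Sptlc3 moved apart, the makeup of the catalytic subunit transcripts changed. Sptlc3 made up 50.7%, 58.9% and 54.3% of the summed RPKM of both genes in the DMSO libraries and 13.2%, 18.1% and 12.9% in the 611 libraries. The ratio of Sptlc3 to Sptlc2 went from 1.22 ± 0.205 to 0.174 ± 0.0412. The log2 ratio differed by -2.82, with 3 libraries against 3 not overlapping. A two-sided exact permutation test over 20 splits gave p = 0.1, the smallest those splits allow. The adjusted p of that test over the 8 ratios and shares computed was 0.16. The splits take the libraries as unpaired, so this test does not use the pairing of same-numbered libraries. The summed level of both genes was 41.2 ± 3.20 RPKM with DMSO and 26.7 ± 0.428 with 611, 1.54-fold lower.

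**Figure D2:**
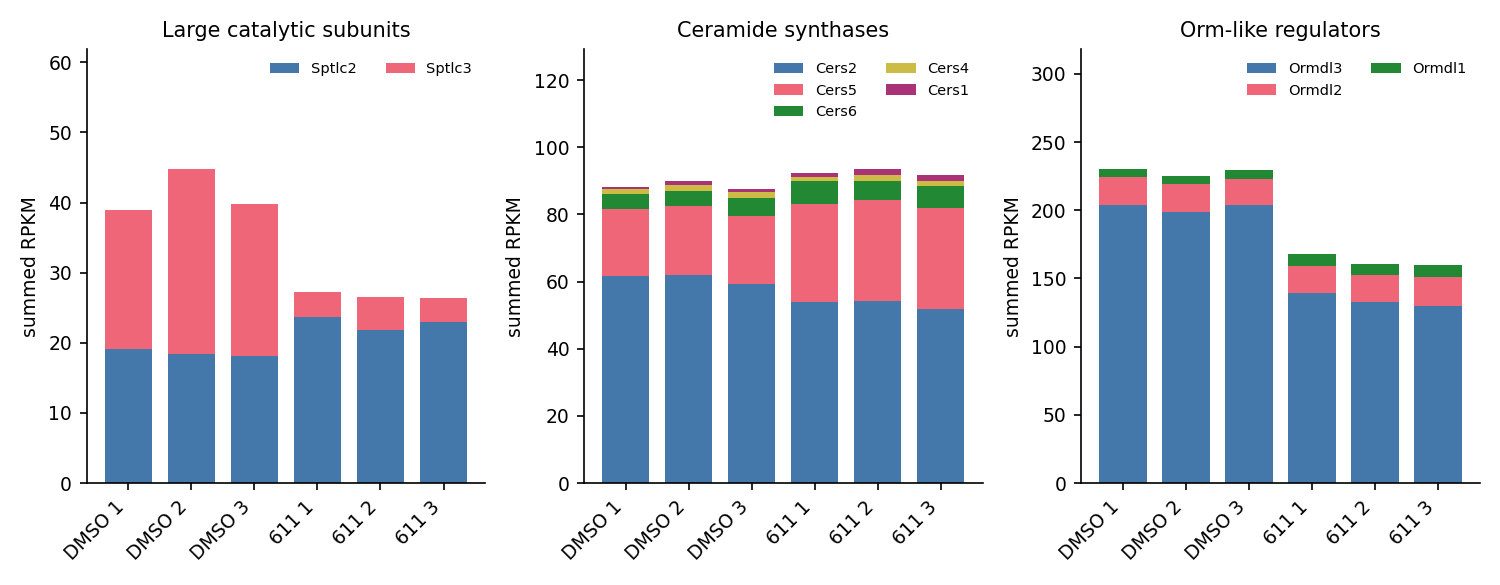
Summed RPKM in each library, stacked by gene, for the catalytic subunits Sptlc2 and Sptlc3, for the ceramide synthases Cers1, Cers2, Cers4, Cers5 and Cers6 (Cers3, with at most 8 reads a library, is not drawn) and for Ormdl1, Ormdl2 and Ormdl3. The 611 libraries have a smaller Sptlc3 and Ormdl3 segment and a larger Cers5 segment, while the synthase bars keep nearly the same height.

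Orm-like proteins bind serine palmitoyltransferase and restrain it when ceramide is plentiful. Ormdl3 had the highest level of the 10 genes, at 203.6, 198.5 and 203.7 RPKM with DMSO and 139, 133 and 129.5 with 611. The groups lay far apart, with each group within a narrow band. Ormdl3 fell by 0.59 on the log2 scale (SE 0.039; limma, Benjamini-Hochberg adjusted p = 3.89e-06), and 393 of the genes tested were at or below that change.

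The other Orm-like genes did not follow Ormdl3. Ormdl1 was higher with 611, at 8.18 ± 0.345 against 6.21 ± 0.210 RPKM (limma, Benjamini-Hochberg adjusted p = 0.000464). Ormdl2 stood at 20.2 ± 0.561 with DMSO and 20.6 ± 1.03 with 611 and missed the threshold (log2 fold change 0.03, 95% interval -0.08 to 0.13; adjusted p = 0.635, limma with Benjamini-Hochberg), and its sign turned to -0.12 after median-of-ratios scaling. The 3 genes summed to 228 ± 2.95 RPKM with DMSO and 163 ± 4.45 with 611, and Ormdl3 made up 88.4% ± 0.277 and 82.3% ± 0.966 of that sum. The ratio of Ormdl3 to the summed catalytic subunits, computed after these values were seen, was 4.93 ± 0.437 with DMSO and 5.005 ± 0.0995 with 611.

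Ceramide synthases attach a fatty acid to the long-chain base, and each prefers certain chain lengths. Cers2, the synthase for very long chains, stood at 61.7, 61.95 and 59.2 RPKM with DMSO and at 53.8, 54.1 and 51.9 with 611. The groups did not overlap, and it fell by 0.19 on the log2 scale (SE 0.036; limma, Benjamini-Hochberg adjusted p = 0.00185) and by 0.34 after median-of-ratios scaling. Each pair of same-numbered libraries had nearly the same ratio, 0.872, 0.873 and 0.877. An exon of Cers2 shares 75 bases with Setdb1 on the opposite strand, and an antisense transcript lies across it as well. No source used here says whether the counting used strand, so their reads may not be separate.

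Cers5, which prefers palmitoyl-CoA, stood at 19.96, 20.4 and 20.3 RPKM with DMSO and at 29.3, 30.3 and 30 with 611. The 3 libraries of a group lay within about 1 RPKM of each other. Cers5 rose by 0.54 on the log2 scale (SE 0.036, 95% interval 0.46 to 0.62; limma, Benjamini-Hochberg adjusted p = 4.20e-06), and 1806 of the genes tested were at or above that change.

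Cers6, which also uses palmitoyl-CoA, stood at 4.45, 4.496 and 5.38 RPKM with DMSO and at 6.76, 5.55 and 6.73 with 611. DMSO replicate 3 and 611 replicate 2 came close to each other, and the groups did not overlap. It was higher by 0.35 on the log2 scale (SE 0.089; limma, Benjamini-Hochberg adjusted p = 0.00853). That call ended after median-of-ratios scaling (0.22; limma, Benjamini-Hochberg adjusted p = 0.0667) and when a trend on length, GC content and level was removed (0.10, adjusted p = 0.318), and over 13 alternatives the adjusted p ran from 0.0029 to 0.32.

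Cers4, a synthase for long and very long chains, was the lowest of the 10 genes. It stood at 1.34, 1.997 and 1.74 RPKM with DMSO and at 1.15, 1.82 and 1.43 with 611. The groups overlapped, and in each same-numbered pair the 611 library was the lower one, at 0.857, 0.912 and 0.818 times the DMSO library. The log2 fold change was -0.13 with a 95% interval from -0.40 to 0.14 and missed the threshold (adjusted p = 0.375, limma with Benjamini-Hochberg; 0.013 to 0.82 over 13 alternatives). It passed at -0.40 when the trend on length, GC content and level was removed. That value rests on a reference transcript length of 9475 bases that may not be the one used for the RPKM values. Exons of Cers4 share up to 886 bases with the pseudogene Vmn2r-ps89 and 214 with Gm36956, both on the opposite strand. Here too the reads may not be separate.

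Read as shares of the summed RPKM of Cers1 to Cers6, Cers2 went from 68.7% ± 1.15 to 57.5% ± 0.850 and Cers5 from 22.8% ± 0.328 to 32.3% ± 0.522. Cers6 went from 5.39% ± 0.649 to 6.87% ± 0.809, with libraries of the groups overlapping. The shares of Cers2, Cers5 and Cers1 did not overlap between groups, that of Cers1 at 1.10% ± 0.135 with DMSO and 1.725% ± 0.265 with 611. Shares of 1 sum are tied to each other, so these are not separate results. Each gave p = 0.1 in the two-sided exact permutation test, the smallest its unpaired splits allow (adjusted p = 0.16). The share of Cers6 gave an exact permutation p = 0.2. The sum itself was 88.7 ± 1.24 RPKM with DMSO and 92.5 ± 1.02 with 611, a ratio of 1.04.

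Degs1, the desaturase that turns dihydroceramide into ceramide, stood at 63.1, 63.5 and 66.2 RPKM with DMSO and at 76.5, 79.5 and 79.3 with 611. Every 611 library was above every DMSO library. It was higher by 0.28 on the log2 scale (SE 0.036; limma, Benjamini-Hochberg adjusted p = 0.000178) and by 0.13 after median-of-ratios scaling, still past the threshold.

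**Figure D3:**
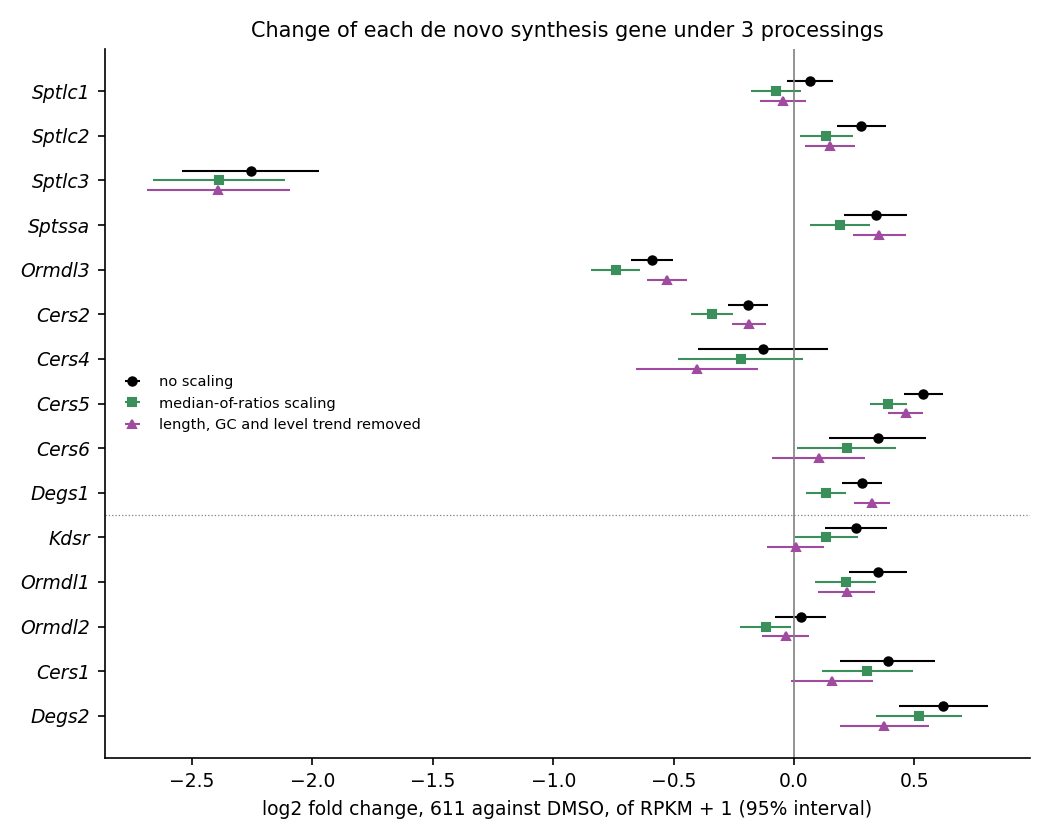
Log2 fold change of RPKM + 1 with its 95% interval for the 10 genes (above the dotted line) and 5 further de novo synthesis genes (below it), without scaling (black circles), after median-of-ratios scaling (green squares) and with the trend on length, GC content and level removed (purple triangles). The intervals of Sptlc2, Sptlc3, Sptssa, Ormdl3, Cers2, Cers5, Degs1, Ormdl1 and Degs2 stay on their side of 0 in each. Those of Sptlc1, Cers4, Cers6, Kdsr, Ormdl2 and Cers1 cross 0 in some or all of them.

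The remaining genes of de novo synthesis were 7, of which 5 could be tested, 4 higher and 0 lower. Of all genes tested, 41.6% were higher and 17.7% lower. The list had 3 higher after median-of-ratios scaling and 2 with the trend on length, GC content and level removed, with 0 lower in each. All 13829 genes tested had 3941 higher and 3962 lower after that scaling, and 3708 and 4446 with the trend removed. At an unadjusted limma p below 0.05 the number lower in the list was also 0. Kdsr, the reductase that follows serine palmitoyltransferase, stood at 3.68 ± 0.130 with DMSO and 4.601 ± 0.213 RPKM with 611 (log2 fold change 0.26; limma, Benjamini-Hochberg adjusted p = 0.0042), and the call ended after median-of-ratios scaling (adjusted p = 0.071; 0.0027 to 0.92 over 13 alternatives). Degs2, a desaturase that can also add a hydroxyl group, was 1.89-fold higher at 2.82 ± 0.215 against 1.49 ± 0.218 RPKM. Cers1, a synthase known from nerve and muscle, was 1.63-fold higher at 1.597 ± 0.259 against 0.979 ± 0.129 RPKM, a call that ended with the trend on length, GC content and level removed (log2 fold change 0.16). Cers3, the synthase of skin ceramides, was at most 0.0633 RPKM in any library and was too low to test.

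Beyond synthesis, 4 further lists covered the fate of ceramide. Beside their counts without scaling stand 41.6% higher and 17.7% lower over all genes tested. In the list for complex sphingolipids and ceramide transport, 14 of 18 genes were tested, 9 higher and 1 lower, with a median log2 fold change of 0.43 against 0.10 over all genes tested. It had 8 higher and 2 lower after median-of-ratios scaling, with a median of 0.30. All 13829 genes tested then had 3941 higher and 3962 lower, at a median of -0.003. With the trend on length, GC content and level removed the list had 8 higher and 5 lower, with a median of 0.20. All genes tested then had 3708 higher and 4446 lower, at a median of -0.033. St3gal5, which makes the ganglioside GM3, rose 2.86-fold from 2.90 ± 0.224 to 8.29 ± 0.502 RPKM. B4galt5, a lactosylceramide synthase, rose 2.46-fold to 14.7 ± 0.659, and A4galt, which starts the globosides, rose 2.49-fold to 8.89 ± 0.233. Gltp, a glycolipid transfer protein, rose 1.79-fold to 24.0 ± 0.683. The 1 gene lower was Sgms1, a sphingomyelin synthase, at 20.1 ± 0.700 against 25.3 ± 0.705 RPKM. Ugcg, the glucosylceramide synthase, was 1.89-fold higher at 8.10 ± 0.361; it and Sgms1 are named after their values were seen. The largest limma Benjamini-Hochberg adjusted p of these 6 genes was 0.000208, that of Sgms1.

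In the breakdown list 22 of 22 genes were tested, 13 higher and 1 lower. Its median log2 fold change was 0.31, against 0.10 over all genes tested, of which 41.6% were higher and 17.7% lower. With the trend on length, GC content and level removed the list had 10 higher and 4 lower, with a median of 0.13. All 13829 genes tested then had 3708 higher and 4446 lower, at a median of -0.033. Hexa, which encodes a subunit of a lysosomal hexosaminidase, rose 1.89-fold to 54.04 ± 2.67 RPKM, and Gm2a, the gene of its cofactor, rose 2.07-fold to 4.07 ± 0.523. Acer2, a ceramidase of the Golgi, was the 1 gene lower, 2.57-fold, from 35.5, 39.4 and 41.8 RPKM in the DMSO libraries to 13.7, 17.8 and 13.9 in the 611 libraries (limma, Benjamini-Hochberg adjusted p = 7.12e-06). Its groups lay far apart. With replicate number as a block the list had 15 higher and 3 lower, Smpd2 and Smpdl3a beside Acer2. All genes tested had 6169 higher and 2700 lower with the block. After median-of-ratios scaling the list had 12 higher and 4 lower, with a median of 0.21. All genes tested then had 3941 higher and 3962 lower, at a median of -0.003. Without DMSO replicate 3 the list had 2 lower, Smpdl3a beside Acer2, and all genes tested had 2215 lower.

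For sphingosine 1-phosphate, the signalling lipid made from sphingosine, 9 of 13 genes were tested, 6 higher and 1 lower, with a median of 0.31. These were 5 and 1 with median-of-ratios scaling, at a median of 0.17. Removing the trend on length, GC content and level gave 5 and 2, at a median of 0.20. Over all genes tested 41.6% were higher and 17.7% lower without scaling, at a median of 0.10. After the scaling 3941 of 13829 genes were higher and 3962 lower, at a median of -0.003. With the trend removed 3708 were higher and 4446 lower, at a median of -0.033. The receptors S1pr2 and S1pr1 rose 2.65-fold to 7.72 ± 0.0868 and 2.17-fold to 7.52 ± 0.780 RPKM. The kinase Sphk1 rose 2.33-fold to 5.81 ± 0.144 and the phosphatase Sgpp1 rose 1.53-fold to 13.3 ± 0.340. The 1 gene lower was the other kinase, Sphk2, at 7.45 ± 0.293 against 8.74 ± 0.172 RPKM. With no filter on low values 2 genes of this list were lower, Sgpp2 beside Sphk2.

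Of 4 regulators of ceramide level 0 were higher and 2 lower, with a median of -0.22, and 3 were lower after median-of-ratios scaling, with a median of -0.37. The 2 were Adipor2, an adiponectin receptor with ceramidase activity, at 209 ± 4.76 against 287 ± 5.24 RPKM, and Rtn4, the gene of Nogo proteins that bind serine palmitoyltransferase, at 133 ± 3.49 against 178 ± 4.19. Elovl1 passed as higher with replicate number as a block and without DMSO replicate 2. Over the 4 lists and the remaining de novo genes together, 54 of 64 genes were tested, 32 higher and 5 lower, and 28 and 10 after median-of-ratios scaling. Of all 13829 genes tested, 41.6% were higher and 17.7% lower, and 3941 genes were higher and 3962 lower after that scaling.

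**Figure D4:**
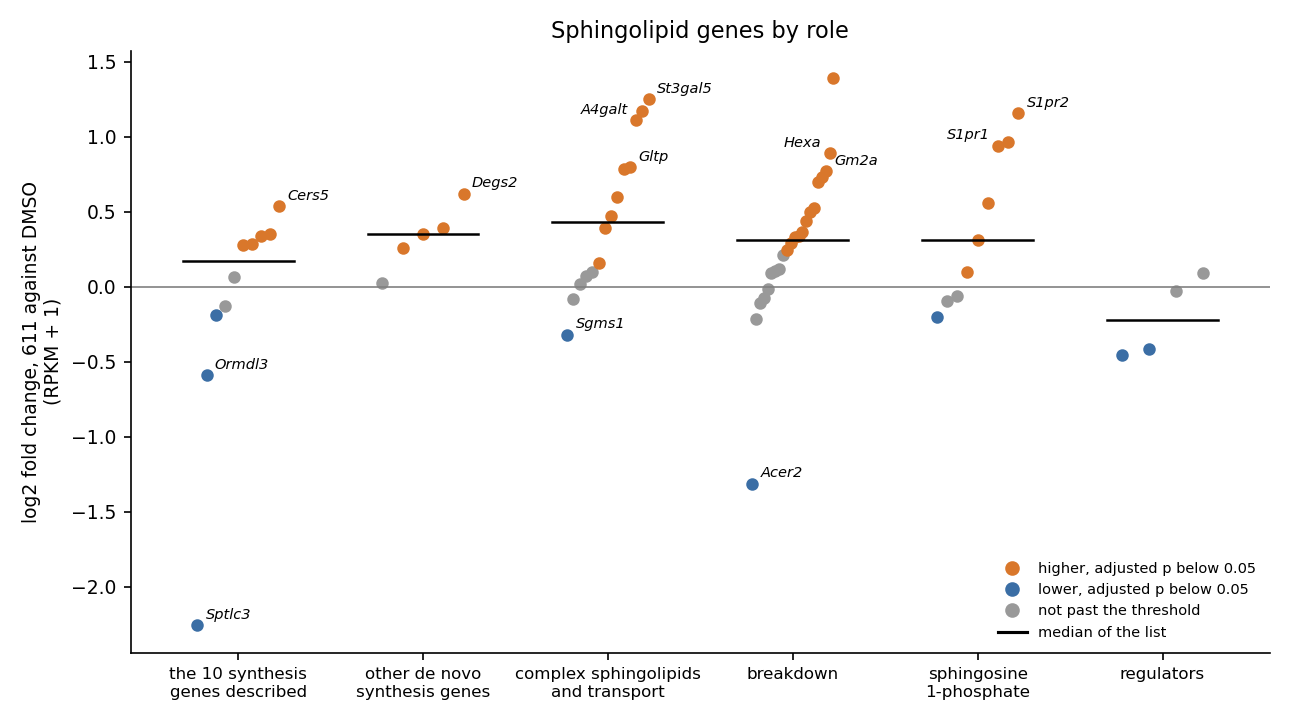
Log2 fold change of RPKM + 1 for each tested gene of the 6 groups of sphingolipid genes, ordered within each group by value, with orange for higher, blue for lower, grey for not past the threshold and a line at the median. Sptlc3 lies lowest at -2.26 and Acer2 next at -1.31.

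The genes whose pattern over the 6 libraries was nearest to that of Sptlc3 were sought among 8362 genes with at least 5 RPKM in the higher group. Likeness was the root mean square difference of centred log2(RPKM + 1), which here is set mostly by the difference between groups. Nearest was Ces1d, a carboxylesterase that acts on triglycerides, at 0.128. It stood at 202, 224 and 197 RPKM with DMSO and at 46.4, 59.3 and 43.4 with 611, with replicate 2 the highest in both groups as for Sptlc3. Next came Thrsp, tied to fatty acid synthesis, at 0.263, Pck1, the carboxykinase of glyceroneogenesis, at 0.276, Cyp2e1, a cytochrome P450, at 0.285, and Acaa1b, a peroxisomal thiolase, at 0.299. Cyp2e1 also had its highest library of each group in replicate 2, at 328 RPKM with DMSO and 112 with 611. Pck1 had its lowest library of each group there, at 17.6 and 2.83 RPKM, and replicate 2 of Acaa1b was the lowest with DMSO and the middle one with 611. For Thrsp replicate 2 was the middle library with DMSO and the highest with 611.

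**Figure D5:**
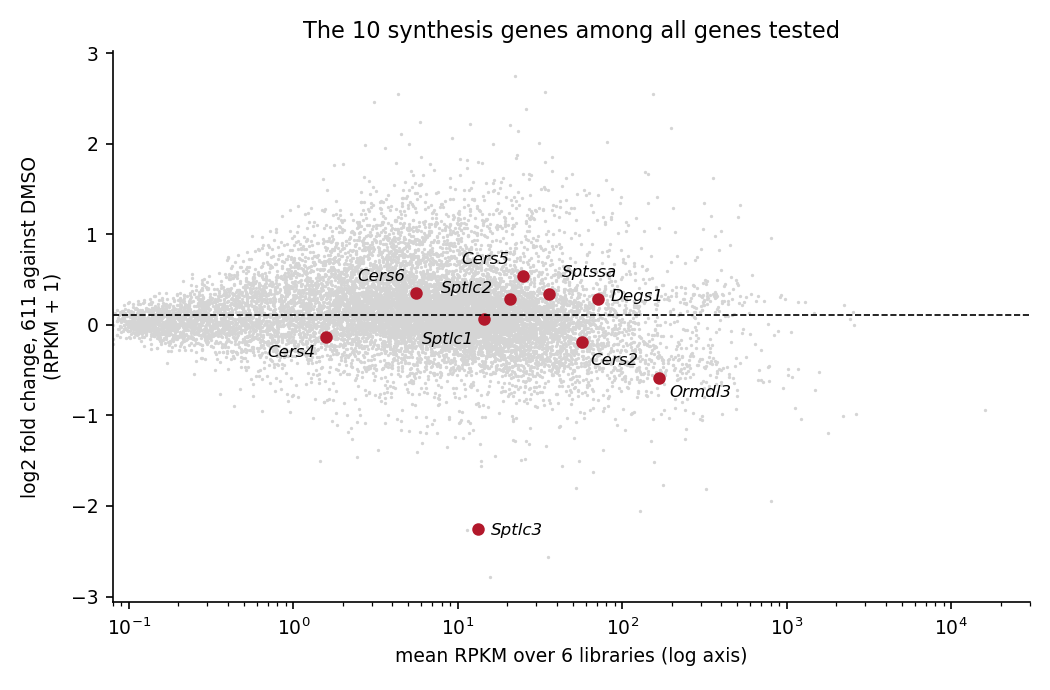
Log2 fold change of RPKM + 1 against mean RPKM on a log axis for the 13829 genes tested (grey), with the 10 genes in red and a dashed line at the median of all genes, 0.10. Sptlc3 lies at the lower edge of the cloud at -2.26, while the other 9 genes lie between -0.59 and 0.54.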

How the data were processed

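Messenger RNA of 6 C3H-10T1/2 cultures was sequenced with a stranded kit, per the labels' protocols. TopHat2 2.0.12, TopHat, SAMtools and build mm9 were used, per the submitters' processing notes. The authors deposited RPKM values for 28430 RefSeq transcripts per library; the program and annotation behind them are not given in the sources. Of the accessions, 27789 matched a symbol in a RefSeq table of GRCm38.p6. Low values were whole multiples of 1 read, within 0.02, for 54.5% to 57.1% of low transcripts at the reference length, which gave totals of about 3.88e+07 to 4.11e+07 reads; reads and floors (3 reads) cover counting error only. Groups and replicate numbers came from the sample titles.

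RPKM values are not counts, so limma 3.58.1 (trend, group as the only term) was fitted to log2(RPKM + 1) of genes with at least 0.1 RPKM in at least 3 libraries. P-values were adjusted by Benjamini-Hochberg over all 13829 genes tested, with 0.05 as the threshold. The fold changes of low genes are understated on this scale. Folds are ratios of mean RPKM. Named genes were the 10 members, the remaining de novo genes, up to 4 called genes a list with at least 1 RPKM and the largest change, the inhibited enzyme's gene Kdm1a and the 5 genes nearest to Sptlc3; 1 gene that this rule names is not reported here. Kdm1a, whose transcript does not check an inhibitor, was at 9.09 ± 0.331 with DMSO and 11.3 ± 0.331 RPKM with 611. The members and lists were chosen with earlier results of these data known. Same-numbered libraries deviated together from their group means, with correlations across genes of 0.296, 0.298 and 0.177. Other pairings gave -0.233 to -0.071. Deviations sum to 0 within a group, so these negative values follow in part from the positive ones. The replicate block pairs libraries by number, and what same-numbered libraries have in common was not tested. Alternatives were another pseudocount (0.1), other filters, 2 scalings, the replicate block, each replicate left out and, chosen after seeing the data, removal of the trend on length, GC content and level (mgcv 1.9.3).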

Additional observations from a re-analysis of the deposited data

How the results depend on the processing

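Over the alternatives run, Sptlc2, Sptlc3, Sptssa, Cers2, Cers5, Degs1 and Ormdl3 kept their direction and their call. The log2 fold change of Sptlc3 ran from -2.50 to -2.14, that of Ormdl3 from -0.74 to -0.53 and that of Cers5 from 0.39 to 0.56. Sptlc2 came nearest to losing its call (limma Benjamini-Hochberg adjusted p from 0.00033 to 0.04). The number of all genes lower was 3962 after median-of-ratios scaling, 3990 after upper-quartile scaling and 4446 with the trend on length, GC content and level removed, which left 3708 higher. In the same 3 settings 10, 10 and 13 of the wider sphingolipid genes were lower, against 5. The causes were not tested, beyond the fact that both scalings lower every 611 library. With the replicate block, 5 of the 10 genes were higher and 3 lower, as without it, and 6169 and 2700 of all genes; the log2 ratio of Sptlc3 to Sptlc2 was again lower by a mean of -2.82. The block, which uses the pairing that the main fit leaves out, changed no call among the 10 genes. With it the SE went from 0.125 to 0.047 for Sptlc3, from 0.118 to 0.057 for Cers4 and from 0.057 to 0.058 for Sptssa. Leaving out 1 library at a time moved the difference in the Cers3 share between -0.0163 and 0.0151 percentage points, at 8 reads or fewer a library. No gene of the 10 had a second transcript, so taking the second transcript gave no value, and summing all transcripts gave the same 8 ratios and shares. Depth limits Cers3 and Sptssb, which were at or near the floor of 3 reads.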
